A study of Drosophila melanogaster and Drosophila yakuba and Drosophila virilis with 6 samples.

Results

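Among the tag positions of the D. melanogaster eye-antennal and wing imaginal discs, 869 carried no gene identifier and had at least 5 tags summed over both discs. They were 4.69% of the 18513 positions without an identifier, and the series listed 84161 positions for this species in all, 65648 of them with a gene. The members were chosen by their summed tag number and by the missing identifier, so that their level and disc bias are descriptions. The eye-antennal and the wing sample were each 1 library from CantonS, a wild-type laboratory strain, dissected at the wandering stage of the last larval instar. D. yakuba and D. virilis, each with 1 library per disc, served as a further readout at the same coordinates. A missing tag there can also be a position that was not placed on D. melanogaster in these species. Their libraries differed in depth: tags assigned to genes numbered 5211019 in the D. yakuba eye-antennal and 2017915 in its wing library, and 1419358 in the D. virilis eye-antennal and 2275834 in its wing library, so tag numbers of these species are given with scaled folds where discs are compared.

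Imaginal discs are the epithelial sacs of the larva from which adult structures form, the eye-antennal disc giving the eye, antenna and head capsule and the wing disc giving the wing and much of the thorax. In tag profiling, cDNA bound by its polyadenylated end is cut with NlaIII, an enzyme that recognises CATG, and the short tag beside the site nearest that end is sequenced, so a tag marks the 3′ portion of a transcript. A tag without an assigned gene can come from a transcript that the annotation lacks, from a 3′ end beyond the annotated one or from an intron.

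The eye-antennal library totalled 2207612 tags and the wing library 1860370. By the rule given below, all 13 eye-antennal marker genes had their higher level in the eye-antennal library, and of 12 detected wing-disc markers 7 were higher in wing and 1 in eye-antennal tags. Markers of other tissues differed too. The eye-antennal disc was higher for 4 of 6 brain genes (509 eye-antennal and 34 wing tags in sum), 5 of 6 ring gland genes (806 eye-antennal and 19 wing tags) and 3 of 4 muscle genes (2888 eye-antennal and 704 wing tags), and 3 of the brain and 2 of the ring gland genes had no wing tag. The wing disc was higher for 4 of 6 fat body genes (36378 eye-antennal and 53835 wing tags), 5 of 6 salivary gland genes (412 eye-antennal and 5323 wing tags) and 3 of 5 hemocyte genes (475 eye-antennal and 1361 wing tags). The part of these tissues in the tags without a gene was not tested, and in such bulk samples fewer cells of a type and less RNA per cell cannot be told apart. With 1 library per disc there was no replicate check and no p-value. All intervals below are exact 95% intervals that cover counting error only, and PCR copies of a molecule were counted as separate tags.

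The 869 members held 25570 eye-antennal and 14685 wing tags, 1.16% (1.14 to 1.17%) of the eye-antennal library and 0.789% (0.777 to 0.802%) of the wing library. They carried 65.5% of all tags without a gene. Tags were concentrated in few places: the median member had 10 tags over both discs and the highest 4206, 231 members had at least 20 tags and 78 at least 100. The 10 members with the most tags held 33.8% of all member tags. Positions with a gene and the same minimum of 5 tags numbered 19283, with a median of 22 and a maximum of 89393 tags.

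The minimum of 5 tags divided a continuous distribution. Just inside it, the 146 positions with 5 tags held 617 eye-antennal and 113 wing tags, and 100 had tags in the eye-antennal library alone. Just outside it, the 269 positions with 4 tags held 882 eye-antennal and 194 wing tags, and 188 had eye-antennal tags alone. The median distance to a position with a gene was 4987.5 bases for the positions with 5 tags and 5098 bases for those with 4.

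Of the members, 461 had tags in both discs, 376 in the eye-antennal library alone and 32 in the wing library alone. A member was counted as higher in a disc, or biased to it, where the interval of the scaled fold (eye-antennal over wing) lay at least 2-fold from 1. By that rule 117 members (13.5%) were higher in the eye-antennal library, against 5.51% of all positions with at least 5 tags. A further 42 members (4.83%) were higher in the wing library, against 6.76% of all positions. The choice by summed tags used the same counts, and 376 members reached the minimum with eye-antennal tags alone and 32 with wing tags alone. These shares thus describe the chosen members and are no test. The median log2 fold was 1.73 over the members and −0.12 over positions with a gene. Where the interval only had to exclude 1, the counts were 289 members for the eye-antennal and 107 for the wing disc. The smallest total that could be called was 12 tags for a position with eye-antennal tags alone and 8 tags for one with wing tags alone.

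**Figure D1:**
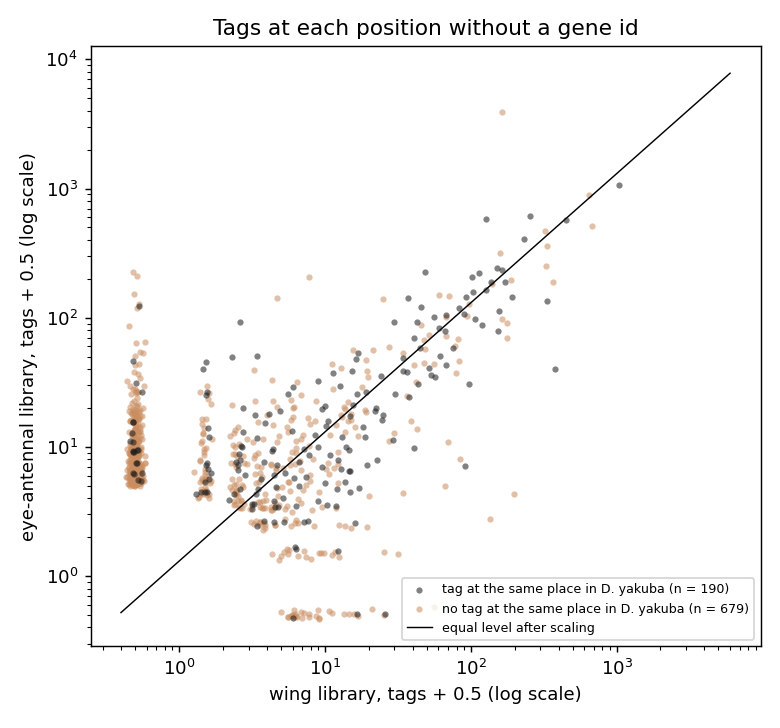
Tags + 0.5 per member in the eye-antennal library (vertical axis) against the wing library (horizontal axis), both on log scales, with each point 1 of 869 positions, spread slightly at random to part equal values. Dark points had a D. yakuba tag at the same coordinates (190) and light points had none (679), and the line marks equal levels after scaling. The column of points without a wing tag, 376 members, is much fuller than the row without an eye-antennal tag, 32 members.

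The difference between discs depended on the tag number. Among the 433 members with 5 to 9 tags the median log2 fold was 3.08, and 59.1% had eye-antennal tags alone, against 15.3% of gene positions with as many tags. Among the 205 members with 10 to 19 tags the median was 1.85, and among the 153 with 20 to 99 tags it was 0.71. Among the 78 members with at least 100 tags it was 0.07, close to the −0.05 of gene positions with as many tags.

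Calls did not vanish with the tag number as the median did. Of members with at least 100 tags, 17.9% were higher in the eye-antennal library, against 6.5% of gene positions with as many tags. The share biased to the wing disc was 11.5%, against 10.9% of gene positions. Both libraries also differed in their rarest positions: positions with a single tag in that library and no gene numbered 14477 for the eye-antennal disc and 1221 for the wing disc. With a gene there were 28319 such positions for the eye-antennal disc and 13561 for the wing disc, a smaller excess. The part of this difference between the libraries in the members with few tags was not tested.

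**Figure D2:**
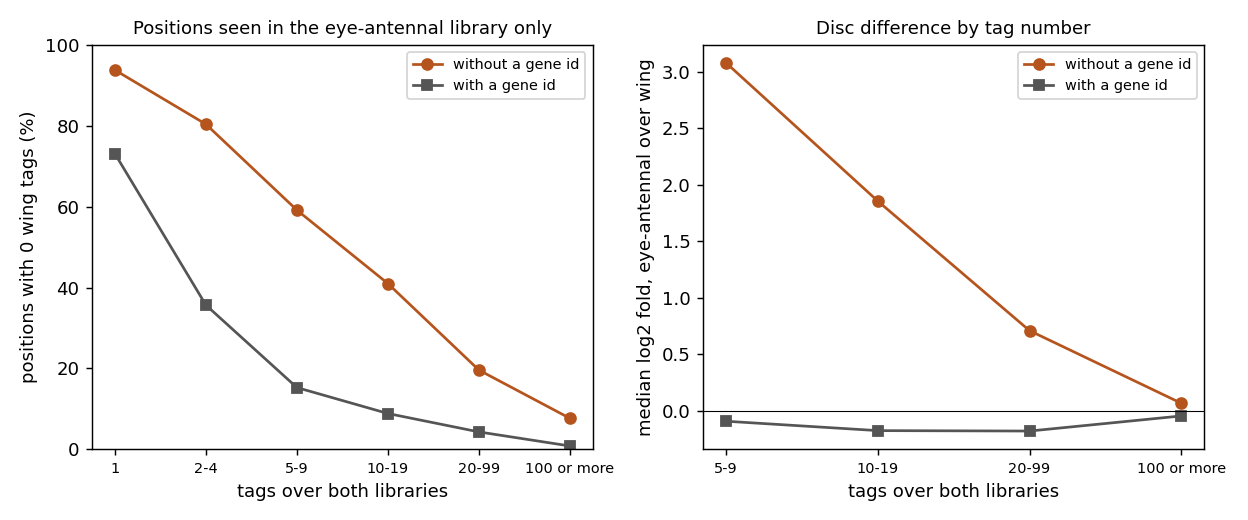
Left, share of positions (percent) with eye-antennal tags alone, and right, median log2 fold (eye-antennal over wing), each by tags summed over both libraries, for positions without and with a gene. On the right the members go down from 3.08 in the bin of 5 to 9 tags to 0.07 at 100 or more, while gene positions stay between −0.18 and −0.05. The value 3.08 is that of 5 eye-antennal and 0 wing tags. On the left the share without a gene is above that with a gene in all 6 bins.

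The nearest position with a gene lay at a median of 3854 bases. The 10% nearest lay within 592 bases and the 10% farthest beyond 22326 bases. Against gene positions with at least 5 tags alone, the median distance was 8086.5 bases. Within 1000 bases lay 151 members (17.4%), and 20 of these overlapped a gene position. Beyond 10000 bases lay 212 members and beyond 50000 bases 29. For 10 members there was no gene position on the same sequence. As a yardstick, neighbouring positions with a gene were a median of 412 bases apart, and 1809 bases where they belonged to different genes.

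Members with many tags lay nearer to genes. The median distance was 5234 bases at 5 to 9 tags, 3803 bases at 10 to 19, 2481.5 bases at 20 to 99 and 1469 bases at 100 or more. The share within 1000 bases was 11.1% in the lowest of these bins and 34.6% in the highest.

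**Figure D3:**
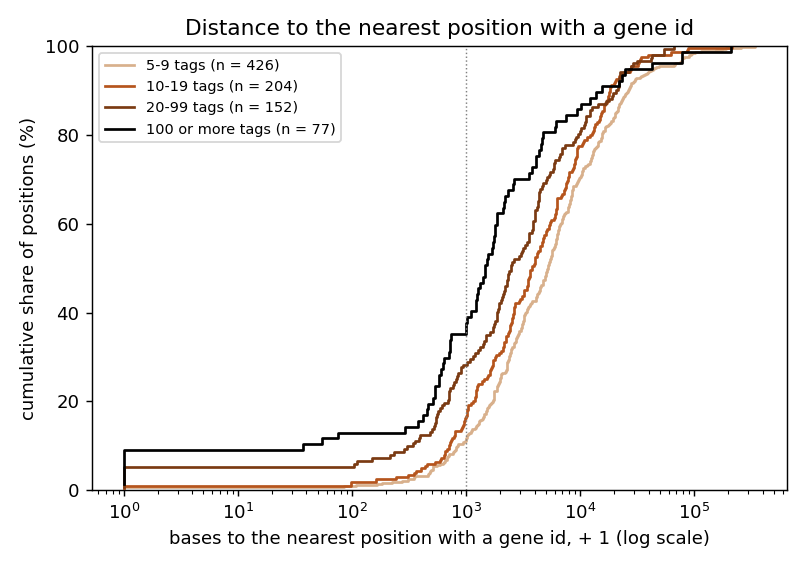
Cumulative share of members (percent) by distance in bases to the nearest position with a gene (plus 1, log scale), with 1 line per bin of tags and a dotted line at 1000 bases. Members with at least 100 tags reach 50% at 1469 bases and members with 5 to 9 tags at 5234 bases.

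The strand of the nearest gene was known for 703 members that did not overlap a gene position. Of these 330 lay on its 3′ side and 373 on its 5′ side, 46.9% on the 3′ side. Within 1000 bases the balance differed, with 79 of 119 (66.4%) on the 3′ side. Among those with at least 100 tags it was 16 of 20. Single-tag positions without a gene, also within 1000 bases and without overlap, stood at 50.5%.

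A missing identifier did not always mean a place between genes, so the members are called positions without a gene. Of the 869, 187 (21.5%) lay between positions of 1 and the same gene. For 134 (15.4%) the BDGP6 annotation, which is later than the names in these files, listed a protein-coding gene between the flanking genes to which no tag was assigned. These 134 held 5281 eye-antennal and 5373 wing tags, and their median log2 fold was −0.01. They made up 63 of the 231 members with at least 20 tags, 27.3%. For 127 members only a gene of another class was listed between, for 208 none, for 55 the flanking genes overlapped, and for 158 the order could not be read. Order and names alone were used, so a listed gene is not shown to contain the position.

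The files give no strand, but the spacing of positions carries it. Starts 18 bases apart occurred 12119 times, against at most 204 pairs at any other spacing up to 40 bases, and both tags of 1 NlaIII site lie so. Taking the left tag as that of the minus strand, 5493 of 6366 pairs (86.3%) inside genes of known strand had more tags on the gene's own strand. A partner tag on the other strand of the same site was present for 221 members (25.4%). Of these partners 78 were members themselves and 20 carried a gene. The share with a partner was 13.4% at 5 to 9 tags and 75.6% at 100 or more, where gene positions reached 77.4%. Pairs whose member was the stronger tag were split by side of the nearest gene position. On the 3′ side 45 of 80 lay on the strand of that gene, and on the 5′ side 33 of 52.

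The member with the most tags lay on the unplaced sequence U, at U:5294449-5294471. It had 4035 eye-antennal and 171 wing tags, an 18.1-fold difference (15.5 to 21.2). It alone held 10.4% of member tags, and the nearest gene position was 213109 bases away. D. virilis had 66 eye-antennal tags and 1 wing tag at the same coordinates, a scaled 90.8-fold difference (15.7 to 3638), and D. yakuba had none. Without it the members held 21535 eye-antennal and 14514 wing tags.

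The next member, 2R:13395961-13395983 near CG34193, had 966 eye-antennal and 1004 wing tags, a scaled fold of 0.74 (0.68 to 0.81). BDGP6 lists nw, a gene named for the narrow wings of its mutants, between its flanking genes. At the same coordinates D. yakuba had 5374 eye-antennal and 1377 wing tags, a scaled fold of 1.46 (1.38 to 1.55), which was not called. X:15360808-15360830, near CG15642, had 543 eye-antennal and 659 wing tags and none in D. yakuba. X:6970802-6970824, near CG4607, had 496 eye-antennal and 333 wing tags, and likewise none in D. yakuba. All 3 lay in clusters and none was biased to a disc. The cluster near CG15642 was both strands of 1 site alone.

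Several strong members shared a site with a tag of a gene. 3R:14752681-14752703 overlapped a position of Xrp1, a transcription factor known from cell competition, and had 891 eye-antennal and 646 wing tags. The member at 2R:17577758-17577780 overlapped CG10307 and had 561 eye-antennal and 474 wing tags. Grasp65, a Golgi protein, was overlapped by 3L:19920120-19920142 with 364 eye-antennal and 332 wing tags, and crim by 3L:11703655-11703677 with 385 eye-antennal and 256 wing tags. None of these 4 was biased to either disc. They lie where both strands of a site gave tags, and the tag without a gene was the more frequent of each pair. With strands taken from the spacing, the members at Xrp1, Grasp65 and crim lay on the gene's own strand. The member at CG10307 lay on the other strand.

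Cirl, an adhesion receptor of the latrophilin family, flanked 2R:4507482-4507504 on both sides. That member had 613 eye-antennal and 228 wing tags, a 2.06-fold difference (1.77 to 2.41), which did not pass the rule. The positions of Cirl itself summed to 1905 eye-antennal and 766 wing tags, a difference in the same direction. At the same coordinates D. yakuba had 606 eye-antennal and 165 wing tags, a scaled fold of 1.38 (1.16 to 1.65). D. virilis had 249 eye-antennal and 808 wing tags, a scaled fold of 0.42 (0.37 to 0.49), and was called for the wing disc, the opposite order.

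Of the 15 members with the most tags, 4 were called. Besides the member on U, 2R:14546457-14546479 near CG33136 was higher in the eye-antennal library, with 504 eye-antennal and 147 wing tags, a 2.63-fold difference. CG42306 and Gint3 are listed between its flanking genes. 2RHet:471190-471212, in heterochromatin near CG40191, was higher in the wing library by 2.60-fold (2.16 to 3.14), with 175 eye-antennal and 349 wing tags. 2L:12057029-12057051, near Rab3-GAP, was higher in the wing library by 3.46-fold (2.82 to 4.28), with 128 eye-antennal and 340 wing tags. Between the genes flanking it BDGP6 lists RpL7-like and CG34164. The rest of the 15 were not called: 2L:14617382-14617404 near osp with 241 eye-antennal and 351 wing tags, 2R:3808980-3809002 between positions of the odorant receptor gene Or43b with 315 eye-antennal and 157 wing tags, and 2L:2757794-2757816 near Bacc with 220 eye-antennal and 192 wing tags. Of the 15, 13 had a partner tag, 9 lay in clusters, 7 had a D. yakuba tag and 12 lay within 5000 bases of a gene position.

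Members with at least 20 tags were ranked by the bound of the fold's interval nearer 1, not by the fold itself. Of the 10 ranked highest towards the eye-antennal disc 1 lay in a cluster, and 3 had no other tag position of any kind within 1000 bases. Of the 10, 9 had no wing tag, so their folds were computed against the 3 wing tags that a count of 0 allows. The exact interval has a lower limit below that value, given beside it. Near rhea, which encodes talin, 3L:8544778-8544800 had 234 eye-antennal and 0 wing tags, 59.8-fold against 3 wing tags (exact lower limit 48.3). Near SdhB, an iron-sulphur subunit of succinate dehydrogenase, 2R:2688151-2688173 had 201 eye-antennal and 0 wing tags, 51.4-fold by the same measure (exact lower limit 41.4). Near CG2875, X:3439942-3439964 had 148 eye-antennal and 0 wing tags, 37.8-fold by the same measure (exact lower limit 30.4). These were large counts in 1 library with nothing in the other.

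The others without a wing tag were near SkpF with 126 eye-antennal tags, side-VIII with 121, a proline tRNA gene with 114, shakB, an innexin of gap junctions, with 90, CG11041 with 65, and Best4, of the bestrophin channel family, with 63. None of the 10 had a nearest gene that was called in the same direction, and 9 had a nearest gene with fewer than 20 tags in all. The distances were 1469 to 213109 bases. A D. yakuba tag was found at 1 of the 10 and a partner tag at 3. Outside the chromosomes, the mitochondrial position M:5922-5944 had 157 eye-antennal and 4 wing tags, a 30.1-fold difference whose wide interval (11.5 to 112) placed it below the 10.

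The 10 members ranked highest towards the wing disc, by the same bound, included 6 in clusters. Near bs, the serum response factor homologue that acts in the intervein regions of the wing, 2R:20238996-20239018 had 4 eye-antennal and 208 wing tags, 67.8-fold higher in the wing library (26.1 to 251). The positions of bs itself held 29 eye-antennal and 27 wing tags and were not called. With strands taken from the spacing, that member lay on the strand opposite to bs. Its flanking genes, bs and an asparagine tRNA gene, overlap in BDGP6, so the tag is not shown to belong to bs.

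One member had the same bias as its nearest gene and as a second species. 2L:8940251-8940273, near the tetraspanin gene Tsp29Fb, had 6 eye-antennal and 90 wing tags, 19.6-fold higher in the wing library (8.64 to 54.7). Tsp29Fb itself had 12 eye-antennal and 97 wing tags. BDGP6 lists CG9515 between the flanking genes Tsp29Fb and C1GalTA, so the tag is not shown to belong to Tsp29Fb. D. yakuba had 22 eye-antennal and 80 wing tags at the same coordinates, a scaled fold of 0.10 (0.06 to 0.17), and was called higher in the wing library too. Sp1, a zinc finger factor of appendage growth, was the gene nearest to X:9655121-9655143, at 5887 bases. That member had 8 eye-antennal and 89 wing tags, a 14.5-fold excess in the wing library (7.05 to 34.6). Sp1 itself had 15 eye-antennal and 4 wing tags and was not called.

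Other members of the 10 lay near Cnot4 with 26 wing tags, Eip63E with 25, CG13021 with 22 and CG33136 with 68, each with no eye-antennal tag, and near CG10038, where 2 were listed. Of the 10, 3 had a D. yakuba tag and 4 a partner, and the distances were 110 to 22035 bases. Over all 42 members biased to the wing disc, the nearest gene was biased alike for 1 and to the eye-antennal disc for 3. For the 117 biased to the eye-antennal disc it was biased alike for 8 and to the wing disc for 5. Of 9481 genes with at least 5 tags, 6.83% were biased to the eye-antennal disc and 5.94% to the wing disc. The nearest genes were not held to that minimum, so the counts and these shares rest on unlike sets of genes.

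Over members with at least 20 tags whose nearest gene, of known strand, had at least 20 tags, Pearson's r between the log2 folds of member and gene was −0.10 on the 3′ side (n = 71) and 0.07 on the 5′ side (n = 54), members that overlap a gene position left out. Sides are those of the nearest gene position, as above, not of the gene's end. The points share both libraries, and some share a gene.

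Members lay in 85 clusters of neighbours at most 1000 bases apart, which took in 236 members (27.2%) and 49.4% of member tags, 10487 eye-antennal and 9393 wing tags. Pairs made up 53 clusters, 15 had 3 members, 17 had 4 or more and the largest had 7. The median cluster spanned 597 bases, and 8 clusters were both strands of 1 site alone. In 37 clusters all members had log2 folds of 1 sign.

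The median log2 fold was −0.03 over clustered members and 3.08 over the other 633. Of the clustered members 14 were biased to the eye-antennal disc and 23 to the wing disc. Of the others 103 were biased to the eye-antennal disc and 19 to the wing disc. At 10 to 19 tags the medians were −0.14 over clustered and 4.01 over other members, and at 20 to 99 tags −0.06 and 1.64. At 100 or more tags the medians were −0.05 over clustered and 0.19 over other members. There 5 of 50 clustered and 9 of 28 other members were higher in the eye-antennal library.

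The cluster with the most tags, 2R:13394982-13395983 near CG34193, had 7 positions, 1228 eye-antennal and 1206 wing tags, and D. yakuba had tags at all 7. The cluster X:6969857-6971559 near CG4607 also had 7 positions and held 565 eye-antennal and 398 wing tags. Near Bacc, 2L:2757794-2758554 held 331 eye-antennal and 279 wing tags, with HemK2 and Snapin, a SNARE-associated protein, listed between its flanking genes. The scaled folds (eye-antennal over wing) of these 3 were 0.78, 1.09 and 0.91.

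The cluster with the largest excess in the wing library among the 10 with the most tags was 3R:8167509-8168069 near CG10038, with 79 eye-antennal and 576 wing tags over 5 positions. All 5 were called. Its strongest position, 3R:8168047-8168069, had 42 eye-antennal and 361 wing tags, 11.2-fold higher in the wing library (8.12 to 15.8). D. yakuba had 24 eye-antennal and 3 wing tags there, and the interval of the scaled fold (0.91 to 15.6) includes 1. BDGP6 lists Sgsf and 3 long noncoding RNAs between the flanking genes. Of the 6 salivary gland markers, Sgs glue genes that do not include Sgsf, 5 were biased to the wing disc. The part of that tissue in this cluster was not tested.

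A pair near CG33136 moved in both directions: 2R:14546457-14546479, higher in the eye-antennal library, lay beside 2R:14546605-14546627, which had 0 eye-antennal and 68 wing tags. For both positions BDGP6 lists CG42306 and Gint3 between the flanking genes, so neither tag is shown to belong to CG33136. Calls in both discs within 1 cluster occurred in 2 clusters. In heterochromatin, 2RHet:471190-471370 held 253 eye-antennal and 423 wing tags, and BDGP6 lists Yeti between its flanking genes. The cluster X:21189354-21189841, between Rpt6, a proteasome ATPase, and Dd, held 191 eye-antennal and 313 wing tags over 6 positions.

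**Figure D4:**
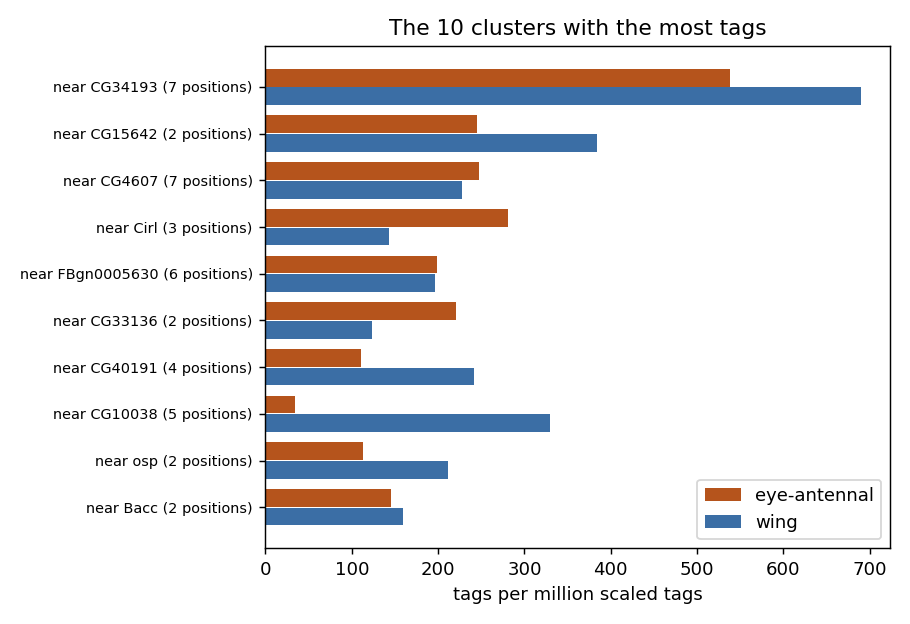
Scaled tag level of the 10 clusters with the most tags, each labelled by its nearest gene and number of positions, with eye-antennal bars above wing bars. The bars are nearly equal for the cluster near FBgn0005630 (452 eye-antennal and 343 wing tags) and differ most for the cluster near CG10038 (79 eye-antennal and 576 wing tags).

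Members were counted by their nearest gene. The 859 members with a gene on their sequence had 597 nearest genes, of which 460 were nearest to a single member. FBgn0005630 was nearest to 12 members, the most of any gene. heca was nearest to 8, with 243 eye-antennal and 66 wing tags. fs(1)h, a bromodomain regulator of transcription, was nearest to 7 with 315 eye-antennal and 220 wing tags. The cell adhesion gene Fas2 was nearest to 6 with 130 eye-antennal and 57 wing tags, and Tsen34, a subunit of the tRNA splicing endonuclease, to 5 with 39 eye-antennal and 49 wing tags.

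Members were also counted near genes of disc patterning. From a list of 97 symbols, 89 had tags, and 21 of these (23.6%) were nearest to at least 1 member, 30 members in all. Over all 12681 genes with tags the share was 4.71%. Patterning genes were not matched to other genes for the length of DNA around them. Of the 30 members 8 were biased to the eye-antennal disc and 0 to the wing disc, against 117 biased to the eye-antennal disc and 42 to the wing disc among all members. All 8 had no wing tag. A list of abundant housekeeping genes, 16 with tags, was nearest to no member. With so few genes, this cannot be set apart from the 4.71% over all genes.

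Among these 8, the gene itself did not follow its neighbour in a single pattern. Near Antp, the homeotic gene of the thorax, a member had 46 eye-antennal and 0 wing tags, while Antp had 22 eye-antennal and 63 wing tags. Near vvl, a POU factor, the member had 40 eye-antennal and 0 wing tags and the gene 5 eye-antennal and 127 wing tags. That member lay 22247 bases away, with lncRNA:CR45115 and lncRNA:CR45416 listed between its flanking genes. A second member near vvl, 9812 bases away, had 2 eye-antennal and 7 wing tags and was not called. Near Ubx, the homeotic gene of the haltere, the member had 20 eye-antennal and 0 wing tags and the gene 3 eye-antennal and 33 wing tags. At these 3 loci the called member and the gene were higher in different discs. The members near Antp and Ubx lay 8647 and 21345 bases from the nearest position of the gene.

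At the eye selector genes both were biased to the eye-antennal disc. Near ey the member had 16 eye-antennal and 0 wing tags and the gene 108 eye-antennal and 1 wing tag. Near toy, the other Pax6 gene, the member had 12 eye-antennal and 0 wing tags and the gene 371 eye-antennal and 1 wing tag. Near fz, the planar polarity and Wnt receptor, the member had 31 eye-antennal and 0 wing tags, and near the homeobox gene hth it had 13 eye-antennal and 0 wing tags. Near eyg, a Pax gene of eye growth, it had 25 eye-antennal and 0 wing tags, and the gene had 31 eye-antennal and 33 wing tags. fz had 461 eye-antennal and 366 wing tags, hth 642 eye-antennal and 419 wing tags, and none of these 3 genes was called. The members near Antp, Ubx, ey, fz and hth lay between positions of the same gene. Distances to the gene position were 1227 bases for ey, 6267 for toy, 7339 for fz, 33867 for hth and 2349 for eyg.

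The density of members differed between sequences. Per 100 positions with at least 5 tags, members numbered 3.50 to 4.58 on the large arms, 9.55 on chromosome 4, 26.6 on heterochromatic sequences and 70.4 on unplaced ones. Chromosome 4 is small and largely heterochromatic, and its 34 members lay at a median of 1401.5 bases from a gene position. The members farthest from any gene position lay on heterochromatic and unplaced sequences: 3RHet:66042-66064 with 7 eye-antennal and 0 wing tags was 342237 bases away. Next came a member on U with 5 eye-antennal and 0 wing tags at 259427 bases, one on 3RHet with 15 eye-antennal and 1 wing tag at 214253 bases, the strongest member on U, and another on U with 5 eye-antennal and 1 wing tag at 192000 bases. Sequences of this kind carry few gene positions, 105 heterochromatic and 8 unplaced with at least 5 tags.

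D. yakuba and D. virilis gave a readout that the choice of members did not use, the presence of a tag at the same D. melanogaster coordinates. A position counted only where it was placed on D. melanogaster with unchanged length and the same start. A missing tag can thus be a position not so placed, and is not shown to be a lack of expression. D. yakuba had a tag at 190 members (21.9%), against 54.8% of gene positions with at least 5 tags. D. virilis had one at 46 members (5.29%), against 14.5% of gene positions. In the files of both species these positions also carried no gene, so they are no independent annotation. The share with a D. yakuba tag was 11.8% at 5 to 9 tags, 20% at 10 to 19, 37.9% at 20 to 99 and 51.3% at 100 or more, where gene positions stood at 62.1%. Single-tag positions without a gene had a D. yakuba tag in 1.28% of cases, and single-tag gene positions in 16.1%.

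**Figure D5:**
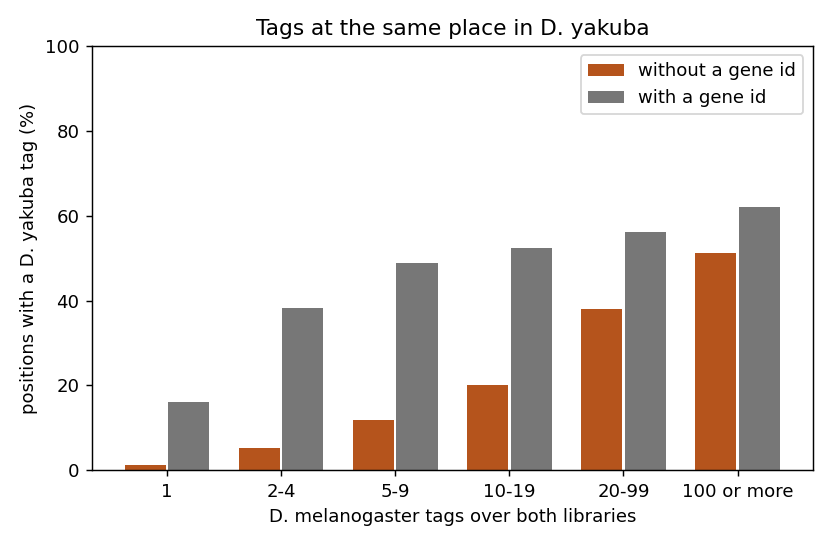
Share of positions (percent) with a D. yakuba tag at the same coordinates, by total D. melanogaster tag number, for positions without and with a gene. Among members it runs from 11.8% at 5 to 9 tags to 51.3% at 100 or more, below gene positions in each bin.

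The 190 members with a D. yakuba tag had a median log2 fold of 0.17, and 16 were biased to the eye-antennal disc and 9 to the wing disc. The 679 without a D. yakuba tag had a median of 3.08, and 101 were biased to the eye-antennal disc and 33 to the wing disc. The median of 3.08 is here, too, the value that 5 eye-antennal and 0 wing tags give. At 10 to 19 tags the medians were −0.14 with and 2.94 without a D. yakuba tag, and at 20 to 99 tags −0.002 and 1.23. In the bin of 20 to 99 tags 9 of 58 with and 35 of 95 without were biased to the eye-antennal disc. At 100 or more tags the medians did not differ in this way, at 0.18 with and −0.06 without a D. yakuba tag. There 5 of 40 with and 9 of 38 without were biased to the eye-antennal disc. A D. yakuba tag was found at 46.2% of clustered members and at 12.8% of the others.

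The disc difference was compared across species where D. yakuba had at least 5 tags, at 144 members. Of these 5 were higher in the D. yakuba eye-antennal library, against 1.64% of all its placed positions, and 3 in its wing library, against 2.16%. Of the members higher in the D. melanogaster eye-antennal library, 9 had that many D. yakuba tags, 8 had the same sign and 2 were called the same way. One was 3R:26197876-26197898 near heca, with 152 eye-antennal and 35 wing tags in D. melanogaster and 293 eye-antennal and 15 wing tags in D. yakuba, scaled 7.32-fold (4.37 to 13.3). The other was 2R:6387336-6387358 near FBgn0005630, with 53 eye-antennal and 3 wing tags in D. melanogaster and 212 eye-antennal and 12 wing tags in D. yakuba, scaled 6.62-fold (3.71 to 13.0). Both were chosen after their values were seen.

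Of the members higher in the D. melanogaster wing library, 8 had at least 5 D. yakuba tags, 4 had the same sign and 1, near Tsp29Fb, was called the same way. Over 86 members with at least 20 D. melanogaster and 5 D. yakuba tags, Pearson's r between the log2 folds was 0.52 and Spearman's rank correlation 0.39, and 53 had the same sign. These points share 4 libraries. In D. virilis 27 members had at least 5 tags, of which 2 were higher in its eye-antennal library, against 3.40% of its placed positions, and 2 in its wing library, against 3.93%.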

How the data were processed

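The deposited files hold counts of tags per genomic position with an assigned gene, per the file headers, and were taken as unnormalised. The submitters' processing notes name Bowtie 0.12.1. What the sources used here do not give are the mismatches allowed, the treatment of tags with several matches, the rule that assigns a gene and the coordinate base. Coordinates are printed as in the D. melanogaster files, whose sequence names are of release 5, and none was converted. Names, strands and gene order come from BDGP6.54 (Ensembl release 115), which matched 11758 of 12681 gene identifiers.

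Positions without a gene held 2.04% of eye-antennal and 0.886% of wing tags and were left out of the scaling. Counts per gene were scaled with TMM factors, 1.05 (eye-antennal) and 0.949 (wing), in edgeR 4.0.16 (R 4.3.3). Each fold is eye-antennal over wing with a 95% interval from the conditional binomial (exact, Clopper-Pearson), log2 folds add 0.5 tags, and a count of 0 allows up to 3 tags. The distance is the number of bases between a member and the nearest position with a gene. The steps were tested on simulated data.

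Positions named are the 15 with the most tags, the 10 per disc with the largest interval bound nearer 1 among those with at least 20 tags, the 10 clusters with the most tags and the 5 with the most positions, the 5 farthest from a gene, called members near patterning genes, and their nearest genes. One position that this rule names is not reported here. Members and lists were chosen with earlier results of these data known. Of the alternatives, 10 were planned and 2 were added after seeing the data.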

Additional observations from a re-analysis of the deposited data

How the results depend on the processing

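No paired analysis was possible because each disc had 1 library and the labels carry no replicate numbers. With a minimum of 10 tags there were 436 members with 1.06% of eye-antennal and 0.758% of wing tags, a median log2 fold of 0.80, a median distance of 2658 bases, 23.6% within 1000 bases, and 53 clusters with 33.0% of members. With a minimum of 20 tags there were 231 members with 0.967% of eye-antennal and 0.717% of wing tags, 58 biased to the eye-antennal and 24 to the wing disc, a median log2 fold of 0.27, a distance of 2105 bases, 30.3% within 1000 bases, and 34 clusters with 37.2% of members. Where the interval only had to exclude 1, 289 were biased to the eye-antennal and 107 to the wing disc. On the chromosome arms alone the shares were 0.928% of eye-antennal and 0.750% of wing tags. Against gene positions with at least 5 tags the median distance was 8086.5 bases, with 10.4% within 1000 bases. Clusters at 500 bases took in 20.02% and at 2000 bases 31.5% of members. Without the 10 members with the most tags the shares were 0.734% of eye-antennal and 0.561% of wing tags. With D. yakuba tags required there were 190 members, 16 biased to the eye-antennal and 9 to the wing disc, a median log2 fold of 0.17 and a distance of 1849 bases. Without members between positions of 1 gene the distance was 4552 bases, with 13.6% within 1000 bases. Scaling by all tags shifted log2 folds by 0.14 and gave 128 members for the eye-antennal and 34 for the wing disc. With 1 tag added to each count the median log2 fold of the members was 1.49. Of 120 values of named positions under another scaling or addend, 119 stayed within their interval. No called value changed sign, and 3 values close to 0 that were not called did. Most settings leave fewer positions by construction, and no other cause was tested. Depth limits calls to positions with at least 12 eye-antennal or 8 wing tags.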
